A study of Caenorhabditis elegans with 4 samples.

Results

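The regions described here are the peaks of FKH-10::GFP on chromosome IV of Caenorhabditis elegans, taken as every peak that the series-level list places on that chromosome. They number 610 of 3792 peaks in the list. The replicate lists hold 212 of 1169 peaks (replicate 1) and 442 of 2468 peaks (replicate 2) on the same chromosome. Members were chosen by chromosome and not by any measured value.

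All 4 samples, 2 ChIP libraries and 2 input libraries, came from whole L4 hermaphrodites grown at 20 °C. The strain is OP337, with the genotype unc119(ed3) and the transgene wgIs377, which joins fkh-10 to TY1, EGFP and FLAG and carries unc119. It was made by bombardment and outcrossed 3 times. Chromatin was crosslinked with 2% formaldehyde and collected with anti-GFP antibodies, and 10% of each extract was kept as input. Every sample carries the transgene, so the peaks were not compared with an untagged strain. Tissues are mixed in whole animals, so weak binding in many cells and strong binding in few cells cannot be told apart. No label states that the replicates were separate cultures, and differences between them may be technical. Sequencing depth behind the lists is unknown.

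Forkhead proteins bind DNA through a winged-helix domain and act as transcription factors in development, metabolism and ageing in many animals. The autosomes of C. elegans have gene-rich centres with little recombination, flanked by arms that recombine more and hold more repeats. Chromosome IV is also known for its broad clusters of 21U-RNA genes, the piRNAs of this worm, and forkhead proteins have been reported to recognise promoters of individual 21U-RNAs. The peaks were not compared with those genes here, because gene positions on the build of the files (WormBase WS220) were not used. All positions below are first and last bases on WS220.

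Peak strength was read from the deposited score, treated as a q-value (an adjusted p-value for enrichment, smaller for stronger peaks). On chromosome IV it ran from 3.42e-75 to 9.89e-04 in the series-level list, with a median of 8.16e-07. It ran from 2.51e-28 to 9.82e-04 in replicate 1 and from 2.72e-47 to 9.05e-04 in replicate 2. Chromosome IV had 161 peaks (26.4%, exact 95% interval 22.9 to 30.1) in the strongest 25% of the series-level list, 47 (22.2%, interval 16.8 to 28.4) in that of replicate 1 and 108 (24.4%, interval 20.5 to 28.7) in that of replicate 2. The interval includes 25% in all 3 lists. It held 1 of the first 10 peaks in each list. Of the first 100 it held 13, 11 and 17 in the series-level, replicate 1 and replicate 2 lists, where it made up 16.1%, 18.1% and 17.9% of all peaks.

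**Figure D1:**
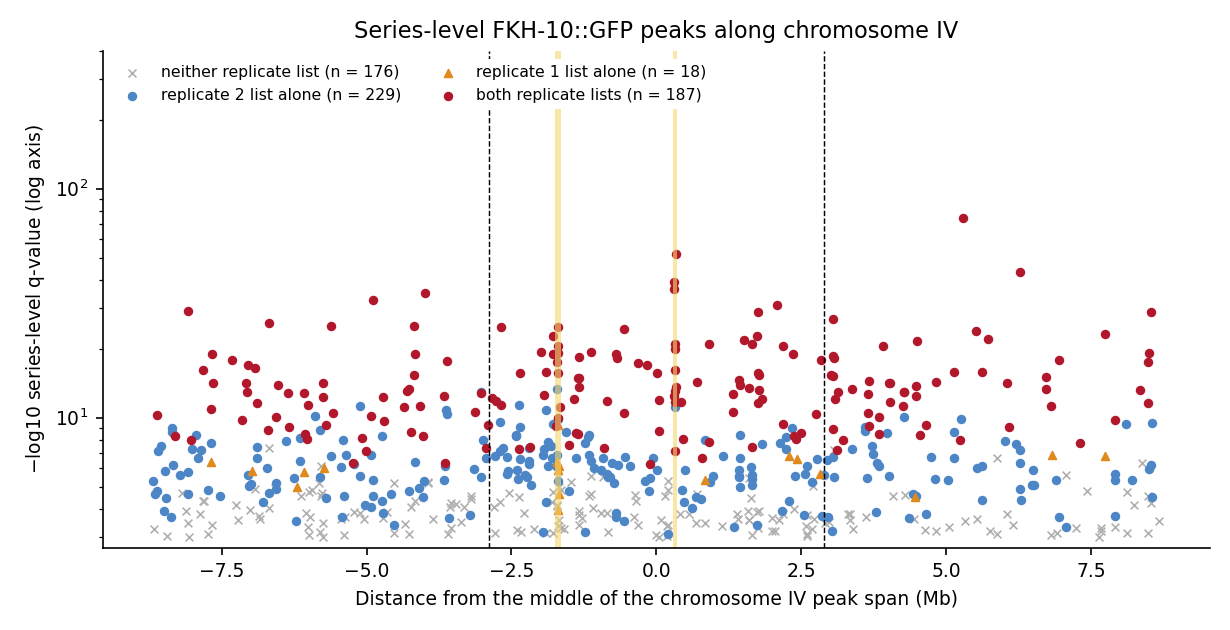
Strength of the 610 series-level peaks (−log10 q, log axis) against distance from the middle of the chromosome IV peak span in Mb. Colours and symbols give the replicate lists that each peak overlaps, dashed lines separate left arm, centre and right arm, and yellow bars mark the 2 blocks of adjoining peaks. The 187 peaks found in both lists fill the upper part along the whole chromosome, and the 176 found in neither lie along the bottom.

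The 3 lists together spanned positions 60227 to 17427191, and this span was divided into 3 equal parts of 5.79 Mb. They are called left arm (to 5849215), centre (5849216 to 11638203) and right arm (from 11638204), and are not genetic map boundaries. The centre was the densest part and the right arm the sparsest. In the series-level list the left arm held 195 peaks (33.7 per Mb), the centre 272 (47.0 per Mb) and the right arm 143 (24.7 per Mb). The order was the same in replicate 1, with 10.5, 16.8 and 9.33 peaks per Mb, and in replicate 2, with 23.1, 34.4 and 18.8 peaks per Mb.

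Peaks closer than 1 kb were merged into clusters, so that a region split by the caller counts once. Of 539 series-level clusters, 186 lay in the left arm, 224 in the centre and 129 in the right arm. The density of clusters in the centre was 1.42 times that of the arms. This ratio was 1.63 on II, 1.97 on V, 1.92 on I, 1.17 on III and 0.91 on X, so a denser centre is not particular to IV. Between the arms, the left one held 59.0% of the 315 arm clusters (interval 53.4 to 64.5). The share was 53.1% of 113 in replicate 1 (interval 43.5 to 62.5) and 56.6% of 226 in replicate 2 (interval 49.9 to 63.2). The left arm was thus ahead in all 3 lists, but the intervals of the replicates include an even split. On chromosomes II and V, the autosomes nearest in peak number, the left arm held 37.6% (interval 32.1 to 43.4) and 53.6% (interval 47.5 to 59.6) of the series-level arm clusters. The interval of II does not overlap that of IV, whereas that of V does.

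The right arm, with the fewest peaks, had the highest shares at both ends of series-level strength. There, 31.5% of 143 peaks were in the strongest 25% of the whole series-level list (interval 24.0 to 39.8), against 26.5% in the centre (interval 21.3 to 32.1) and 22.6% in the left arm (interval 16.9 to 29.1). In the weakest 25% of that list were 24.5%, 23.5% and 21.5% in the same order. In the strongest 25% of the replicate lists, the replicate 1 shares were 29.6%, 20.6% and 18.0%, and those of replicate 2 were 30.3%, 25.6% and 17.9%. In the weakest 25%, they were 20.4%, 27.8% and 26.2% in replicate 1 and 19.3%, 21.6% and 26.1% in replicate 2. The intervals of the 3 parts overlap in each of these comparisons. Overlap does not show equal shares, and the differences between the parts were not tested.

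In windows of 1 Mb the series-level count ran from 17 to 68 over the 17 full windows. The highest was the window from 7000001 to 8000000, with 68 peaks, of which 22 belong to a block, followed by that from 10000001 with 51 and that from 6000001 with 50. The lowest were in the right arm, from 16000001 with 17, from 14000001 with 19 and from 15000001 with 20. Replicate 1 did not follow this profile everywhere. It had 10 peaks in the window from 6000001, where replicate 2 had 41, and 20 in the window from 11000001, where replicate 2 had 33. Across these 17 windows the Spearman correlation of peak counts was 0.60 between the replicates, 0.67 between replicate 1 and the series-level list and 0.90 between replicate 2 and the series-level list. These correlations are descriptions, since neighbouring windows share libraries and mappability.

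**Figure D2:**
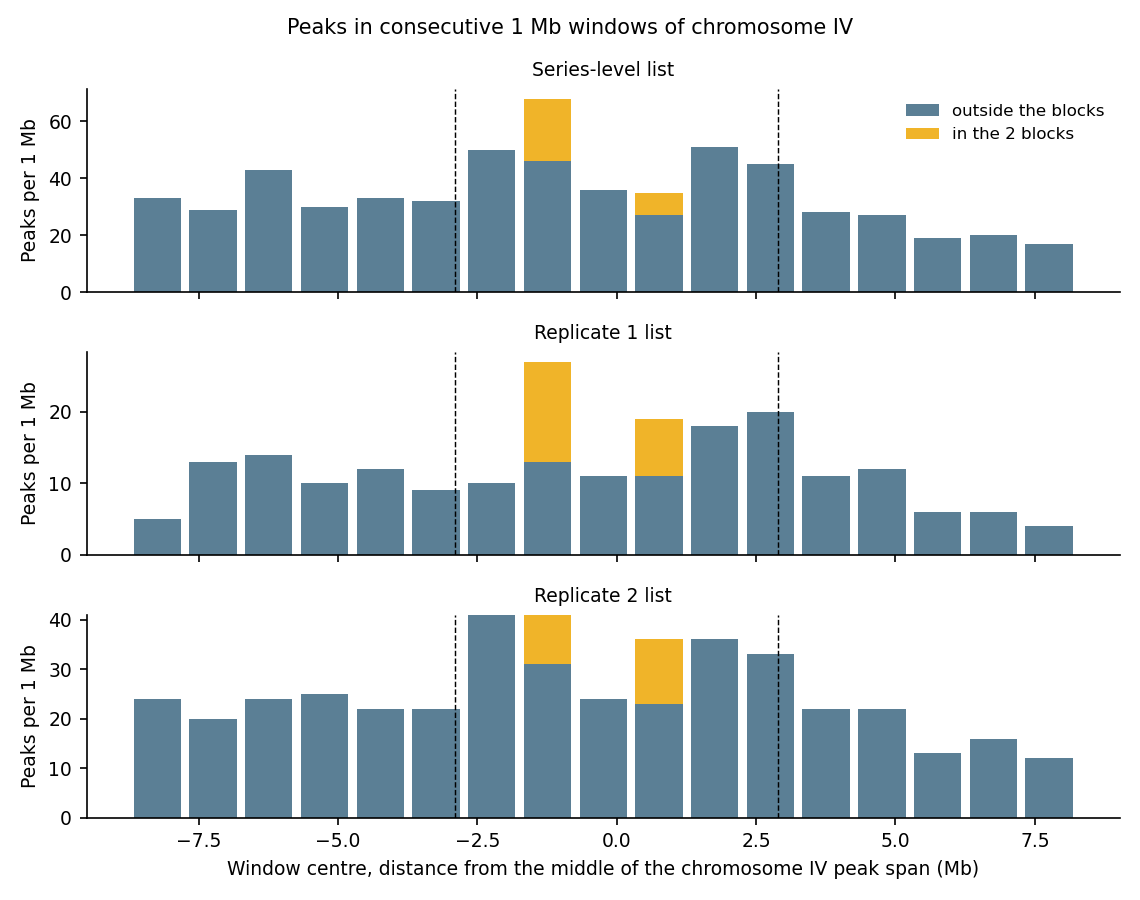
Number of peaks in each full 1 Mb window of chromosome IV against distance of the window's centre from the middle of the peak span, in the series-level, replicate 1 and replicate 2 lists. Yellow parts are peaks of the 2 blocks and dashed lines separate the arms from the centre. Series-level counts run from 17 in the right arm to 68 in the centre, 22 of the latter in a block.

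The median gap between neighbouring series-level peaks was 11784 bp (quartiles 2593 and 37923 bp). It was 16368 bp in the left arm, 7745 bp in the centre and 12985 bp in the right arm. The right arm thus had the fewest peaks but a median gap below that of the left arm, and it also had the widest spread, with an upper quartile of 61086 bp against 41014 bp in the left arm. No series-level gap on the chromosome was shorter than 203 bp. Among 609 gaps, 71 (11.7%) were at most 1 kb, and 118 of the 610 peaks (19.3%) had a neighbour that near. Without the blocks it was 94 of 580 peaks (16.2%).

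The right arm held more long gaps than either other part. Of 35 gaps over 100 kb, 16 lay there, 11 in the left arm and 8 in the centre. The 3 longest were 12130965 to 12346326 (215 kb), 13564642 to 13777488 (213 kb) and 15259915 to 15471352 (211 kb), all in the right arm. The first held 1 peak of replicate 2, and the other two held no replicate peak. The longest gap on chromosome IV was shorter than those on II (384787 bp) and V (783175 bp), and 35 gaps on IV, 25 on II and 45 on V were over 100 kb. Of 175 windows of 100 kb, 158 held at least 1 cluster outside the blocks, with a median of 3.

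The most crowded windows outside the blocks were in different parts. The window from 2900001 to 3000000 in the left arm held 11 clusters, but its strongest peak ranked only 440 of 3792 and 7 of its 11 peaks were in neither replicate list. That from 6300001 to 6400000 in the centre held 10 clusters and 11 peaks, where replicate 2 had 9 peaks and replicate 1 had 2. That from 17200001 to 17300000, near the right end, held 10 clusters and 11 peaks, 4 of them in both lists and the strongest at rank 70.

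Series-level peaks on the chromosome had a median width of 382 bp (quartiles 296 and 546 bp). Medians were 404.5 bp in replicate 1 and 362 bp in replicate 2, and by part they were 372 bp (left arm), 383.5 bp (centre) and 385 bp (right arm). Width followed strength. The peaks were divided by q-value into 4 strength classes of 152 or 153 peaks, class 1 being the strongest, and median width was 627 bp in class 1, 403 bp in class 2, 340.5 bp in class 3 and 277 bp in class 4. Spearman's rho between q-value and width across the 610 peaks was −0.67, and across the peaks of II and V it was −0.65 on both. It was −0.49 in replicate 1 and −0.65 in replicate 2 on chromosome IV. Width and q-value come from the same reads, and rho is a description.

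The widest peaks were mostly in the centre. There were 30 peaks of 1000 bp or more, of which 22 lay in the centre, 3 in the left arm and 5 in the right arm. The centre held 272 of all 610 peaks (44.6%). Of the 30, 10 were in the blocks, which lie in the centre and were defined by a large covered length, and 20 were outside them. The blocks thus add to the count of the centre, which held 242 of the 580 peaks outside them. Whether wide peaks outside the blocks favour the centre was not tested. At the other end, 23 peaks were under 100 bp and 12 were under 30 bp. The shortest spanned 2 bases, 2737853 to 2737854 (q = 4.64e-04). Of the 23, 22 were in neither replicate list and 1 was in replicate 2 alone. Such listed edges lie closer together than the fragments of sonicated chromatin are long.

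**Figure D3:**
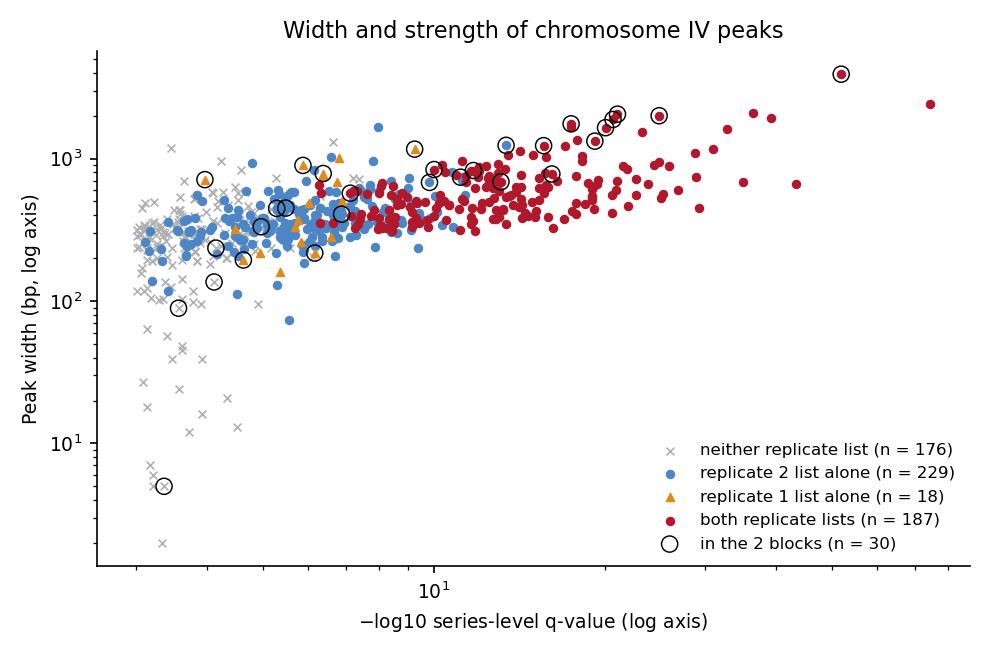
Width (bp, log axis) of the 610 chromosome IV peaks against −log10 of the series-level q-value (log axis), with colours for the replicate lists each overlaps and circles around the 30 peaks of the blocks. Wider peaks are the stronger ones, and the 23 peaks under 100 bp lie at the weak end.

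Of the 610 peaks, 187 overlapped a peak in both replicate lists (30.7%, interval 27.0 to 34.5), against 27.2% of the peaks of all chromosomes. In replicate 2 alone 229 were found (37.5%, against 35.1% of all), and in replicate 1 alone 18 (2.95%, against 2.45% of all). Neither list held 176 (28.9%, interval 25.3 to 32.6), against 35.2% of all. The all-chromosome shares include chromosome I, where 60.5% of 476 peaks were in neither list. On II the share in neither was 32.3% (interval 28.6 to 36.1) and on V it was 35.2% (interval 31.4 to 39.0). Both intervals overlap that of IV, but overlap does not show equal shares, and the differences were not tested. On III and X the share in neither was 28.7% and 32.7%, so the share on IV lay within the range of the chromosomes other than I.

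Recurrence fell steeply as peaks became weaker. In class 1, 141 of 152 peaks were in both lists (92.8%, interval 87.4 to 96.3) and 0 in neither (interval 0 to 2.40). In class 2, 46 of 153 were in both (30.1%) and 5 in neither (3.27%). In class 3, 0 of 152 were in both and 48 in neither (31.6%), and in class 4 these were 0 and 123 of 153 (80.4%). The weakest peak in both lists stood at rank 291 of the 610, at 8629463 to 8630116 (q = 5.31e-07), so every weaker peak was seen in at most 1 replicate. The strongest peak missing from a replicate stood at rank 88 (7032496 to 7033733, q = 4.04e-14, in a block), and the strongest missing from both at rank 229. The series-level q-value is not independent of the replicate lists. Over the 178 peaks with 1 peak in each replicate, Spearman's rho with it was 0.75 for replicate 1 q-values and 0.90 for replicate 2. A peak in both lists is thus likely to rank high, so this gradient is in part built in.

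Recurrence was also set side by side for the parts of the chromosome within a strength class. In class 1, 88.1% of 42 peaks in the left arm, 94.1% of 68 in the centre and 95.2% of 42 in the right arm were in both lists. In class 2 the shares were 37.0% of 46, 25.7% of 70 and 29.7% of 37. The intervals overlap in each class, but the groups are small and overlap does not show equal shares. Over all classes, 27.7% of left arm peaks (interval 21.5 to 34.5), 30.1% of centre peaks (interval 24.8 to 36.0) and 35.7% of right arm peaks (interval 27.8 to 44.1) were in both, with overlapping intervals.

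**Figure D4:**
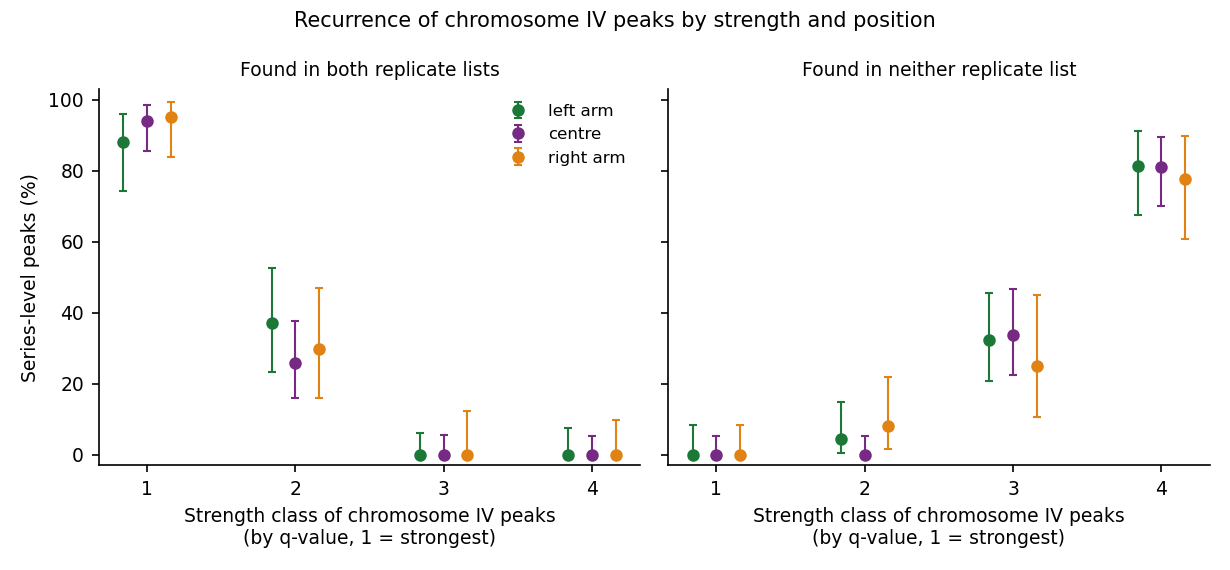
Share of series-level peaks (%) found in both replicate lists (left panel) and in neither (right panel), by strength class (1 is the strongest) and by part of chromosome IV; bars are exact 95% intervals. Shares move with strength class and the 3 parts overlap within each class, with 88.1% to 95.2% in both lists in class 1 and 0 in classes 3 and 4.

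Counted from the replicates, 190 of 212 peaks of replicate 1 on chromosome IV overlapped a peak of replicate 2 (89.6%, interval 84.7 to 93.4, against 90.3% on all chromosomes). In the other direction 190 of 442 did (43.0%, interval 38.3 to 47.7, against 42.8%). All 53 peaks of the strongest 25% of replicate 1 on IV had a counterpart, and 42 of 53 in the weakest. In replicate 2 these were 98 of 110 and 11 of 111. Without a series-level peak were 2 peaks of replicate 1 (0.943%, against 0.855% on all chromosomes) and 18 of replicate 2 (4.07%, against 3.00%).

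Those 20 peaks were weak, and none overlapped a peak of the other replicate. The strongest of replicate 1 was 11070897 to 11071280 (q = 2.35e-04), followed by 1818379 to 1818526 (q = 8.70e-04). The strongest of replicate 2 were 13036220 to 13036649 (q = 1.33e-04), 16486736 to 16486917 (q = 1.54e-04) and 15899319 to 15899351 (q = 1.88e-04), all in the right arm.

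Position was compared for the 178 series-level peaks in which each replicate had exactly 1 peak, and all 178 pairs overlapped each other. Both peaks of a pair overlap the same series-level peak, whose median width was 545 bp. This limits how far apart they can lie, and peaks split in a replicate are left out, so closeness is in part built in. The distance between the midpoints was 40.25 bp at the median (quartiles 19.6 and 81.1 bp), and it was within 100 bp in 140 pairs (78.7%). It was 48.25 bp in class 1 and 28.25 bp in class 2, whose peaks are narrower. Median distances in the left arm, centre and right arm were 40.5, 42.75 and 37.5 bp. The widest disagreement, 525.5 bp, was in the centre, and outside the blocks it was 316 bp. Replicate 2 had the wider peak in 113 of the 178 pairs, and the series-level peak was at least as wide as both in 156. Spearman's rho between the replicates' q-values was 0.55 over the 178 pairs, and 0.45 in the centre against 0.61 in the left arm and 0.64 in the right arm. It was 0.39 over the 132 pairs of class 1 and −0.16 over the 46 pairs of class 2, each of which spans a narrower range of strength. The pairs share libraries and depth, and these values are descriptions.

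The strongest peak of the chromosome in every list was at 14032298 to 14034701 in the right arm, 2404 bp wide. Its q-values in the series-level, replicate 1 and replicate 2 lists were 3.42e-75, 2.51e-28 and 2.72e-47. The replicates listed it as 1 peak of 1946 and 2373 bp, and its neighbours were 30169 and 36184 bp away. The other leading peak of the right arm was 15016700 to 15017359 (660 bp), with q-values of 4.59e-44, 1.16e-22 and 1.26e-21. Among peaks of the chromosome it ranked 3, 2 and 4 in the same order, and was thus strong in both libraries although less than a kilobase wide.

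The next peaks of the right arm were weaker and also recurred. That at 17278129 to 17278873 had q-values of 1.30e-29, 4.21e-10 and 1.16e-20 in the series-level, replicate 1 and replicate 2 lists, and that at 11788398 to 11788997 had 1.45e-27, 6.27e-12 and 1.26e-16. The first stood at rank 14 on the chromosome in replicate 1 and rank 5 in replicate 2, the second at ranks 10 and 15. The peak at 16491329 to 16492862 was wide, at 1534 bp, and its replicate peaks were 1402 and 1425 bp. Those at 14260568 to 14261227, 14463999 to 14464464 and 13240180 to 13241065 completed the 8 strongest, with series-level q-values of 1.61e-24, 1.14e-22 and 3.16e-22. The peak at 14463999 differed most in place between the replicates among these, ranking 39 on the chromosome in replicate 1 and 12 in replicate 2.

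In the left arm the strongest peak was 4749589 to 4750271 (683 bp), with a series-level q-value of 1.08e-35 and replicate values of 1.01e-18 and 9.56e-24. It ranked 3 on the chromosome in both replicates. The peak at 3859095 to 3860694 was undivided in the series-level list (1600 bp) and in replicate 2 (1051 bp), but replicate 1 split it into peaks of 857 and 491 bp. The peak at 654705 to 655150 was narrow (446 bp) and ranked 2 on the chromosome in replicate 2 (q = 1.61e-24) but 8 in replicate 1 (q = 1.86e-12). The peak at 3134904 to 3135428 went the other way, at rank 4 in replicate 1 (q = 3.20e-13) but only 48 (q = 1.72e-11) in replicate 2. The remaining peaks of the 8 were 2053338 to 2054217, 4568420 to 4568980, 1070309 to 1070942 and 4585870 to 4586379, with series-level q-values from 1.32e-26 to 1.09e-19.

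In the centre, outside the blocks, the strongest peaks adjoined each other. They were 9052203 to 9054117 (q = 7.28e-40) and 9054329 to 9056418 (q = 4.27e-37), 211 bp apart. Replicate 1 listed 1 peak in each, of 385 and 891 bp, and replicate 2 listed 2 in each, of 1469 and 51 bp and of 717 and 1032 bp. They end 6333 bp before the shorter block described below, outside it by the 5 kb rule. With gaps of up to 10 kb allowed, that block would start at 9050808 and take them in.

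Other strong peaks of the centre stood alone or in looser company. That at 10821267 to 10822429 was 1163 bp wide, with q-values of 1.14e-31, 1.03e-11 and 6.12e-20 in the series-level, replicate 1 and replicate 2 lists. That at 10499770 to 10500859 was nearly as wide in the replicates, at 1008 and 1012 bp, as in the series-level list, at 1090 bp. Those at 8180954 to 8181849 and 10481547 to 10482261 were much further up in replicate 2, at ranks 14 and 13 on the chromosome, than in replicate 1, at ranks 57 and 58. The peaks at 6060687 to 6061634 and 6954670 to 6955227 completed the 8, with series-level q-values of 1.27e-25 and 2.02e-23. Among the 5 widest peaks outside the blocks, 1 was not strong: 5752919 to 5754589, 1671 bp wide, had a series-level q-value of 1.08e-08 and was seen in replicate 2 alone.

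Peaks of 1 replicate were weaker. The strongest seen in replicate 2 alone, outside the blocks, were 5714961 to 5715618 (q = 1.28e-13), 6365937 to 6366495 (q = 4.70e-12), 3626144 to 3626851 (q = 6.30e-12) and 5111286 to 5111617 (q = 1.51e-11). In the first, the series-level and replicate 2 peaks had the same first and last bases. The strongest seen in replicate 1 alone were 15570627 to 15571131 (q = 1.30e-07), 11025971 to 11026980 (q = 1.55e-07), 16493972 to 16494654 (q = 1.71e-07) and 11179248 to 11179528 (q = 2.53e-07). These stood no higher than rank 248 of 610, so replicate 1 alone added no strong peak outside the blocks.

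The strongest peaks in neither list were 2054897 to 2055615 (q = 4.04e-08), 11813503 to 11814227 (q = 6.02e-08), 14620428 to 14621725 (q = 2.22e-07) and 17118677 to 17119223 (q = 4.89e-07). The first lies 679 bp to the right of the peak at 2053338, which was in both lists. Weak peaks lay beside a stronger neighbour more often than strong ones did. Outside the blocks, 5 of 138 class 1 peaks (3.62%, interval 1.19 to 8.25) and 21 of 148 class 4 peaks (14.2%, interval 9.0 to 20.9) had a stronger peak within 1 kb. This order follows in part from the definition, since a weak peak has more stronger peaks to lie beside.

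A pair of blocks in the centre is given apart. Together they hold 30 of the 610 peaks (4.92%) and 10.0% of the bases in series-level peaks on the chromosome. Their median width was 759.5 bp, against 378 bp in the 580 peaks outside, but the rule for a block asks for a large covered length and so favours wide peaks. Whether they mark FKH-10 binding was not tested.

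The longer block, 7027331 to 7063013 (35683 bp), had 22 series-level, 14 replicate 1 and 10 replicate 2 peaks. Replicate 1 thus had more peaks here than replicate 2, although its list for the chromosome is shorter. In it 6 of 14 replicate 1 peaks overlapped replicate 2 (42.9%, interval 17.7 to 71.1), against 176 of 190 outside the blocks (92.6%, interval 87.9 to 95.9). In the other direction, 6 of 10 replicate 2 peaks overlapped replicate 1 (interval 26.2 to 87.8), against 175 of 419 outside the blocks (41.8%, interval 37.0 to 46.7). The intervals stand apart for replicate 1 peaks and overlap for replicate 2 peaks. The 14 peaks lie side by side, so they may not be independent, as the interval assumes. They ranked 384 to 1154 in replicate 1, and the comparison with the 190 was not matched for strength. Of the weakest 53 replicate 1 peaks on the chromosome, which include some of these, 42 overlapped replicate 2 (interval 65.9 to 89.2). Of the strongest 53 all did. Of the 22 series-level peaks 6 were in both lists, 6 in replicate 1 alone, 4 in replicate 2 alone and 6 in neither. The 6 in replicate 1 alone compare with 12 of 580 (2.07%) outside the blocks.

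No peak of the longer block was among the strongest 100 of the series-level list. Its strongest was 7044643 to 7046640 (q = 1.32e-25), which covered 2 peaks in replicate 1 and 1 in replicate 2. The others of the 4 strongest were 7038417 to 7040296 (q = 2.28e-21), 7043113 to 7044437 (q = 6.60e-20) and 7027331 to 7029083 (q = 3.76e-18). The best q-value in the block was 2.14e-06 in replicate 1 (rank 384 of its list) and 2.15e-10 in replicate 2 (rank 358). The weakest of the 22 spanned 5 bases, 7041869 to 7041873.

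The shorter block, 9062752 to 9078892 (16141 bp), had 8 series-level, 8 replicate 1 and 13 replicate 2 peaks. All 8 replicate 1 peaks overlapped replicate 2 (interval 63.1 to 100), 9 of 13 replicate 2 peaks overlapped replicate 1 (69.2%, interval 38.6 to 90.9), and 7 of the 8 series-level peaks were in both lists. In both directions the intervals overlap those of the longer block. The last, 9074983 to 9078892, was the widest on the chromosome (3910 bp) and ranked 15 in the whole list (q = 1.08e-52). It covered 2 peaks in replicate 1, the stronger with q = 7.65e-13, and 4 in replicate 2, the strongest with q = 7.82e-09. Its best replicate peaks ranked 65 in replicate 1 and 528 in replicate 2, against 15 for the series-level peak. Next were 9062752 to 9064801 (q = 9.52e-22), 9069949 to 9071595 (q = 9.32e-21) and 9068538 to 9069316 (q = 7.60e-17).

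**Figure D5:**
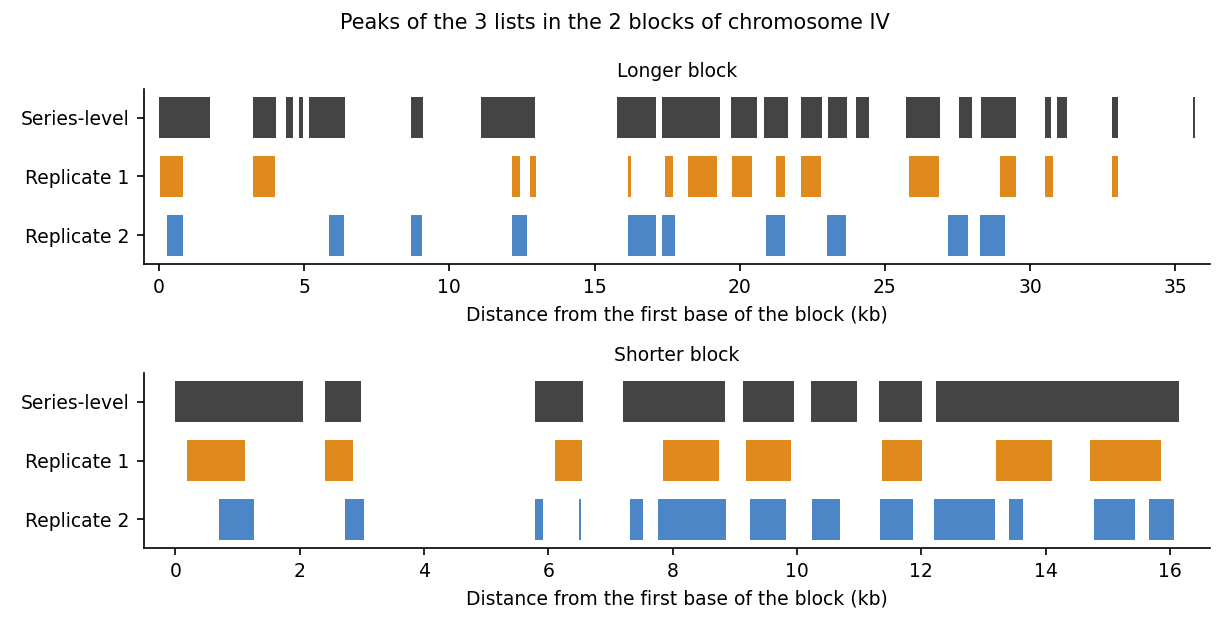
Extent of the peaks of the series-level, replicate 1 and replicate 2 lists in the 2 blocks, against distance from the block's first base in kb. In the longer block (22, 14 and 10 peaks) 6 of 14 replicate 1 peaks overlap a replicate 2 peak, and in the shorter one (8, 8 and 13 peaks) all 8 replicate 1 peaks overlap a replicate 2 peak.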

How the data were processed

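Anti-GFP ChIP-seq peaks were read from 3 lists: those of the ChIP libraries, replicates 1 and 2, and a series-level list. Per the file headers, the build is WormBase WS220, and the source column of the deposited files names PeakSeq. Its version and threshold, the aligner, the use of the 2 input libraries and any pooling behind the series-level list are not given in the sources used. Each peak carries 1 score, deposited by the authors without a unit and taken here as a q-value (adjusted p-value) of the PeakSeq call. The score times the peak number never decreases along the numbers (relative tolerance 1e-09), as such values would behave. Ranks were taken by score inside each list, ties by number. The lists hold no counts, so read depth is unknown. Input values were not analysed here.

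A peak recurred where it overlapped a replicate peak by at least 1 bp. Peaks and clusters (peaks at most 1 kb apart, merged) were placed by midpoint. A block is a run of series-level peaks, none over 5 kb from the next, that together cover 10 kb or more. Shares have exact Clopper-Pearson 95% intervals, which cover counting error alone and assume that peaks are independent; no p-values were computed. Named regions are the 8 strongest peaks of each part found in both replicates, the 4 strongest of each other recurrence class, all outside the blocks, the strongest peaks without a series-level counterpart, the 5 widest, the most crowded windows of 100 kb and the longest gaps. The members, lists and rules were chosen with earlier results of these data known. Overlap, merging and placement were tested on simulated lists. Alternatives were other overlap rules, cluster distances and centre widths, the stronger 50% of peaks, and lists without the blocks or a replicate. Python 3.11.15, pandas 2.3.3, NumPy 2.4.6, SciPy 1.17.1 and matplotlib 3.10.9 were used. No gene or sequence was assigned to a peak, because the gene table used is of WBcel235, a different assembly.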

Additional observations from a re-analysis of the deposited data

How the results depend on the processing

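Of 45 alternative values for 10 results, 39 were planned and 6 were added after the data were seen. Planned does not mean chosen blind, since members and rules were chosen with earlier results of these data known. Of the 45, 38 stayed within the interval, replicate spread or 1.5-fold range of the reported value and 0 reversed. A reversal was defined only for the density ratio and the left-arm share. The centre share and the density ratio come from the same counts. For the median gap of 11784 bp the replicate spread allowed was 11644 bp, a loose limit. The share of peaks in both lists ran from 27.5% (midpoint rule) to 32.3% (merged peaks), and the centre-to-arm density ratio, 1.42 as reported, from 1.33 to 1.61. The stronger 50% of the series-level list held 326 of the 610 peaks, with a median width of 483 bp and a median gap of 25098 bp. With the central 50% of the span as centre, it held 58.8% of clusters against 41.6%, which follows from its greater length. Without replicate 1 or 2, peaks in at least 1 list numbered 416 or 205 against 434. From the list of replicate 1 or 2 alone, the median gap was 34159 or 17692 bp and the left arm held 53.1% or 56.6% of arm clusters. In the stronger 50% that left-arm share was 54.7% (interval 46.9 to 62.2), which includes an even split. Replicate 2 has the longer list. Depth is unknown, so a peak missing from a list may be absent or below its detection limit. No paired analysis was possible because only ChIP peak lists were analysed here, with no values of the input libraries.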
